A study of Mus musculus with 40 samples.

Results

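The spread of gene expression between mice was compared between the quadriceps and the gastrocnemius. All 40 arrays of the study were used, 20 for each muscle. Of 16475 probe sets, each standing for 1 gene, 6479 had a mean signal intensity over 20 and were tested. For each of them the log2 signal minus the mean of its muscle and diet group was taken, and the standard deviation (SD) of these residuals over the 20 quadriceps arrays was set against that over the 20 gastrocnemius arrays. The log2 SD ratio is positive where the quadriceps varied more from mouse to mouse. The centring removes differences in mean level between the muscles or the diets. The spread itself can still vary with the signal level, as given below.

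The arrays came from 20 male mice aged 20 weeks, each of which gave both muscles. All mice had first received a low fat run-in diet for 3 weeks from 9 weeks of age, and then a low fat diet (LFD, 10 mice) or a high fat diet (HFD, 10 mice) for 8 weeks. The strain is labelled C56BL/6J and given as C57BL/6J in the methods, and the extraction text names only the quadriceps for every array, while the titles name the muscle of each array. The labels name no transgene or deletion.

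A dissected muscle holds several fiber types and other tissue. Slow fibers carry their own isoforms of myosin and of the troponins, and in mouse hindlimb they lie together in certain regions of a muscle. Neutrophils are white cells of the marrow and blood that store antimicrobial proteins in granules, red cell precursors make heme, and Schwann cells wrap the nerves that enter a muscle in myelin. In such bulk samples fewer cells of a type and less RNA per cell cannot be told apart.

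To show the sequence next to genes on which the results turn, promoters of RefSeq (build GRCm38.p6, 250 bases before to 50 bases after the start) are given for *Ngp*, a neutrophil granule gene, *Alas2*, the first enzyme of heme synthesis in red cell precursors, and for the slow fiber genes *Tnni1* and *Myoz2*. Capitals mark letters found on either strand. The search was for AGATAA as the motif of GATA factors, for TTGCNNAA as that of C/EBP factors, for CAGCTG as the E-box of myogenic factors, for the MEF2 motif, and for TATAAA as the TATA box. No matches overlapped in these stretches.
*Ngp*, chr9:110419558-110419857, + strand: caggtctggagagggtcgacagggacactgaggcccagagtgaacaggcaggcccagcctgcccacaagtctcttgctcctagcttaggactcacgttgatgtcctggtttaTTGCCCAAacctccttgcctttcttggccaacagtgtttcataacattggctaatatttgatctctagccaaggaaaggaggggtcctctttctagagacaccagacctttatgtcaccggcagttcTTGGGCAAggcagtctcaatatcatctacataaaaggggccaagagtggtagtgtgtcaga
*Alas2*, chrX:150547167-150547466, + strand: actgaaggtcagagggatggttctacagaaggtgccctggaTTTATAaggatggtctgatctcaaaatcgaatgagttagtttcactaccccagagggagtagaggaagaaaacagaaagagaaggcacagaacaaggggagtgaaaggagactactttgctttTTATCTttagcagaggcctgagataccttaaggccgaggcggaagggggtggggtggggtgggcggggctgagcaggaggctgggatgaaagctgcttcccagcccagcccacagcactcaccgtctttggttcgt
*Tnni1*, chr1:135799171-135799470, + strand: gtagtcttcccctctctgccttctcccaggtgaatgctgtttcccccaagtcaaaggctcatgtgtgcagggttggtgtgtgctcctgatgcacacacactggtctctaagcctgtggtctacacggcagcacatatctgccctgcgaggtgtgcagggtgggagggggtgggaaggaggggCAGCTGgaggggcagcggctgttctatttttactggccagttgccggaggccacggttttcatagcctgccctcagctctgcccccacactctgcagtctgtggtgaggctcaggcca
*Myoz2*, chr3:123034938-123035237, - strand: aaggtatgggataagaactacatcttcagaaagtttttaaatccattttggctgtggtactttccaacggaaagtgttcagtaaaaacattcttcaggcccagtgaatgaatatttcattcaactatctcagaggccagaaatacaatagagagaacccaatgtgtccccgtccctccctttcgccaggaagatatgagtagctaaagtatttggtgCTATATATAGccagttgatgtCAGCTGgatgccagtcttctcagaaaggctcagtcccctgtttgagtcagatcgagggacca
Of the 30 genes called below, 23 had a promoter in the table, with 28 promoters among them. The letters of GATA were present in 6 of the 28 promoters, those of C/EBP in 6, of the E-box in 10, of MEF2 in 1 and of the TATA box in 6. Some genes had more than 1 promoter, and those of *Tnni1* overlap and share the E-box. By gene the counts were 6, 6, 8, 1 and 6 of the 23. Of all 32851 promoters of this length, 11.2%, 10.8%, 16.3%, 3.69% and 13.6% held the same letters. *Ngp* held the C/EBP letters at 138 and 11 bases before the start, and *Myoz2* held the MEF2 letters at 33 and the E-box at 12. A match is a description of the letters only.

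Array medians were 8.8 to 9.4, the correlation between arrays was 0.985 to 0.997, and no arrays held identical values. The number of arrays limits the precision. Mouse 141 stood apart in genes that separate the muscles. *Tbx1*, a T-box transcription factor, had a signal of 205.3 in its gastrocnemius and 19.1 to 56.3 in the other gastrocnemius arrays, and 242 in its quadriceps against 354 to 634 in the others. *Hoxd9*, a positional homeobox factor, had 99 in its quadriceps and 11.7 to 40.1 in the others, and 104.8 in its gastrocnemius against 165.9 to 293.8. *Dkk3*, which encodes a secreted dickkopf protein, had 70.4 in its gastrocnemius and 8.1 to 16.7 in the others. For *Tbx1* and *Hoxd9* both arrays of this mouse thus lay between the other arrays of the muscles. Whether its samples were mixed was not tested, and its labels were kept. Without mouse 141, 26 genes had the larger spread in the quadriceps and 4 in the gastrocnemius. With all mice these counts were 27 and 3.

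For most genes the spread was alike. The median residual SD was 0.185 in the quadriceps and 0.183 in the gastrocnemius on the log2 scale, and the median log2 SD ratio over the tested genes was 0.01, with quartiles of -0.22 and 0.23. The SD was larger in the quadriceps for 3335 genes (51.5%). The counts differed among the most variable genes. A residual SD over 1 was seen in 36 genes in the quadriceps and 11 in the gastrocnemius. An SD over 2 was seen in 9 genes in the quadriceps and 0 in the gastrocnemius. Of the tested genes, 64 had a mean signal under 20 in the gastrocnemius and 42 in the quadriceps. They passed the filter through the other muscle alone. Such genes are part of these counts, which are therefore a description. Low spread was about as frequent in both, with 678 genes under 0.1 in the quadriceps and 712 in the gastrocnemius. Spread fell with signal in both muscles, from a median SD of 0.238 and 0.235 for genes with a signal of 20 to 50 to 0.113 and 0.109 for genes over 1000.

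By array, the median absolute residual was 0.118 ± 0.0178 in the quadriceps and 0.117 ± 0.0255 in the gastrocnemius (SD, n = 20 arrays each), which did not differ beyond the spread between arrays (two-sided permutation test, p = 0.823). The root mean square of the residuals gives more weight to large deviations. It was 0.257 ± 0.0352 in the quadriceps and 0.224 ± 0.0434 in the gastrocnemius and differed by 0.0329 (permutation test, p = 0.0133). It includes the genes that passed the filter through a single muscle, so this difference is given as a description. It was not computed without them. Among the quadriceps arrays this root mean square was highest in mice 145, 143, 149 and 141.

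The absolute residuals of the muscles were compared with limma for each gene, with Benjamini-Hochberg adjustment over all 6479. At an FDR under 0.05, 27 genes (0.417%) had the larger spread in the quadriceps and 3 (0.0463%) in the gastrocnemius. At an unadjusted p under 0.05 these counts were 247 and 137. Of the 27 genes, 11 also had the lower mean signal in the quadriceps, and 12 had a mean under 20 in the gastrocnemius, so that they passed the filter through the quadriceps alone and their spread in the gastrocnemius is that of signals near background. These were *Slc4a1*, *S100a9*, *S100a8*, *Ngp*, *Camp*, *Ltf*, *Lcn2*, *Ctse*, *Alas2*, *Cytl1*, *Igkc* and *Ucp2*. Since a gene that passed in this way had to differ, their ratios, p-values and counts are given as a description. With a mean over 20 required in each muscle, 15 and 2 genes were called. With the group median in place of the mean as centre the counts fell to 9 and 1, and among genes whose level differed by under 1.3-fold between the muscles, which held 2 of the 30 called genes, they were 0 and 0 (limma, 192 and 133 at an unadjusted p under 0.05). Without each single mouse, 18 of the 27 and 2 of the 3 genes were still called.

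**Figure D1:**
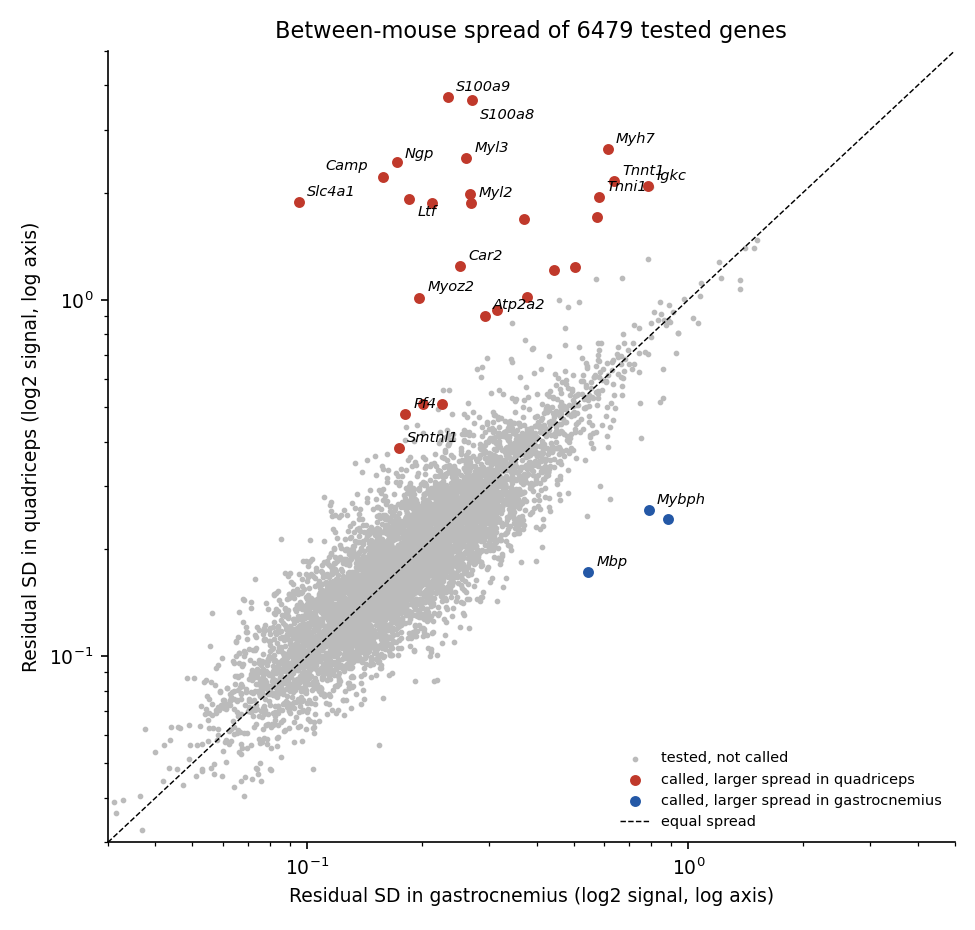
Residual SD of log2 signal over 20 gastrocnemius arrays (x axis) and 20 quadriceps arrays (y axis) for the 6479 tested genes, both on log axes, with the dashed line at equal spread. Most genes lie around the line, the 27 genes called for a larger spread in the quadriceps lie above it and the 3 called for the gastrocnemius below it.

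Neutrophil genes were near background in every gastrocnemius array and varied widely in the quadriceps. The 6 members of the list that passed the filter did so through the quadriceps alone, so that their SD in the gastrocnemius is that of the background. A further 7 members on the array were below the signal limit. *S100a9*, which with *S100a8* forms calprotectin, had a signal of 5.4 at the lowest, 165.9 at the median and 5315 at the highest in the quadriceps, and of 5.2, 6.4 and 8.8 in the gastrocnemius. Of the quadriceps arrays, 10 were in the range of the gastrocnemius and the other 10 were at 323.5 or above, with nothing in between. Its residual SD was 3.71 against 0.234, a log2 SD ratio of 3.99 ± 0.20 (jackknife SE over 20 mice; limma, adjusted p = 0.0157). *S100a8* behaved alike, with 5.1 to 4031 in the quadriceps, 5.4 to 9.7 in the gastrocnemius and a log2 SD ratio of 3.75 ± 0.22 (limma, adjusted p = 0.0157). The calls of both were lost on leaving out some single mice, with adjusted p up to 0.114 and 0.112 (limma). They were also lost with the group median as centre and with no filter on signal (limma, adjusted p up to 0.292).

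*Ngp*, the neutrophilic granule protein, had signals of 5.8, 24.9 and 1692 (lowest, median, highest) in the quadriceps and of 6.7, 7.95 and 10.9 in the gastrocnemius. The log2 SD ratio was 3.83 ± 0.37 (limma, adjusted p = 1.91e-07). *Camp*, the cathelicidin antimicrobial peptide, reached 824 in the quadriceps and at most 4.7 in the gastrocnemius, with a log2 SD ratio of 3.81 ± 0.25. *Ltf*, the iron-binding granule protein lactoferrin, reached 519.7 against at most 5.4 (3.37 ± 0.40). *Lcn2*, a siderophore-binding protein of granules, reached 713.9 against at most 8.1 (3.14 ± 0.43). These 4 genes were called without each single mouse, but all 4 calls were lost with squared deviations (limma, adjusted p = 0.0881, 0.223, 0.763 and 0.651), and those of *Ltf* and *Lcn2* also with log2(signal + 50). In each of them the quadriceps of mouse 145 was the highest array.

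Red cell genes varied in the same arrays. Of the 4 tested members of the list 3 were called for the quadriceps, where 0.417% of all tested genes were, and of these *Slc4a1* and *Alas2* passed the filter through the quadriceps alone. *Slc4a1*, the band 3 anion exchanger of the red cell membrane, had a log2 SD ratio of 4.31 ± 0.29 (limma, adjusted p = 4.07e-10) against a signal near background. Its signals in the quadriceps were 5, 20.1 and 134.9 (lowest, median, highest), and all gastrocnemius arrays were between 5.2 and 6.4. *Car2*, carbonic anhydrase 2, had 23.9 to 197.6 in the quadriceps and 21.1 to 40.3 in the gastrocnemius (2.30 ± 0.41). *Alas2* had 9.5 to 73.4 and 7.6 to 25.7 (1.45 ± 0.32). *Tfrc*, the transferrin receptor, which takes iron into many cell types, had an SD of 0.662 and 0.721 and was not called (log2 SD ratio -0.12, limma, adjusted p = 0.996).

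The same 10 quadriceps arrays carried the high signals of these genes: mice 148, 153, 155 and 160 on the LFD and mice 145, 146, 149, 150, 152 and 157 on the HFD. For *S100a9*, *Ngp*, *Ltf*, *Lcn2*, *Slc4a1* and *Car2* exactly these arrays were above every gastrocnemius array. The gastrocnemius of the same mice was not raised. The geometric mean of the 6 neutrophil genes was 5.0 to 1493 over the quadriceps arrays and 5.0 to 6.5 over the gastrocnemius arrays. Both diets were represented among the 10 arrays. No result is given without these arrays, since that would choose arrays by the measured outcome.

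Other called genes with the larger spread in the quadriceps showed this pattern and were named after their values were seen, apart from *Ctse*. *Ctse*, the aspartic protease cathepsin E, had 6 to 227.6 in the quadriceps and 6.1 to 12.9 in the gastrocnemius (2.89 ± 0.30; limma, adjusted p = 2.14e-07). *Cytl1*, a secreted cytokine-like protein, had 5.5 to 118.9 and 6.8 to 19.4 (2.19 ± 0.28). *Ecrg4*, a secreted peptide precursor, had 14.8 to 128.4 and 15.4 to 39.1 (1.44 ± 0.23). *Fam117a* had 56.4 to 175.9 and 62.5 to 98.4 (1.34 ± 0.31). In these 4 genes the same 10 quadriceps arrays, and no others, were above the range of the gastrocnemius. The call of *Fam117a* was lost in the Pitman-Morgan test, which pairs the muscles of a mouse (adjusted p = 0.0604). With the group median as centre the calls of *Ecrg4* and *Fam117a* were lost, and that of *Fam117a* also with squared deviations. Over the alternatives their adjusted p rose to 0.316 and 0.212 (limma).

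*Pf4*, a chemokine of platelets, had 168.6 to 462.2 in the quadriceps and 228 to 353.4 in the gastrocnemius (1.40 ± 0.28), and 9 of the 10 arrays were above that range. *Ucp2*, an uncoupling protein of the inner mitochondrial membrane, had 15.1 to 47.9 and 13.8 to 25.3 (1.18 ± 0.39), with 7 of them above it. *Igkc*, the constant part of the kappa immunoglobulin chain made by plasma cells, differed in its arrays. It had 6.2 to 434.8 in the quadriceps and 4.6 to 41.7 in the gastrocnemius (1.41 ± 0.57), and was also high in the quadriceps of mice 142, 151 and 158, at 166, 142.3 and 352.8, while mouse 157 was at 15.5. The calls of *Igkc* and *Ucp2* were lost without some single mice, with adjusted p up to 0.0958 and 0.12 (limma). That of *Ucp2* was also lost in the Pitman-Morgan test (adjusted p = 0.114). With the group median as centre and with squared deviations the calls of *Pf4*, *Igkc* and *Ucp2* were lost. Over the alternatives their adjusted p rose to 0.292, 0.34 and 0.423 (limma).

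Markers of other cells gave fewer differences. Of 9 tested macrophage and complement genes, 8 had the larger SD in the quadriceps (51.5% of all tested genes), with a median log2 SD ratio of 0.61, and 0 were called, while 3 had an unadjusted p under 0.05. *Tyrobp*, a signaling adaptor of myeloid cells, had 13.6 to 221.2 in the quadriceps and 14.4 to 46.3 in the gastrocnemius (0.93 ± 0.42; limma, adjusted p = 0.581). The 3 tested B cell genes had log2 SD ratios of -0.15 to -0.03, and *Ighm*, the heavy chain of IgM, had SDs of 0.345 and 0.383. Of the 3 tested cell division genes, *Mcm7*, a subunit of the replicative helicase, had 1.07 ± 0.34 (limma, adjusted p = 0.0695), and *Mcm4* and *Aurka* had 0.09 and -0.04. The osteoclast and bone matrix genes *Alpl*, *Acp5* and *Col1a1* had 0.45, 0.41 and -0.28, and none was called. Whether other cells played a part in the spread of the called genes was not tested.

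**Figure D2:**
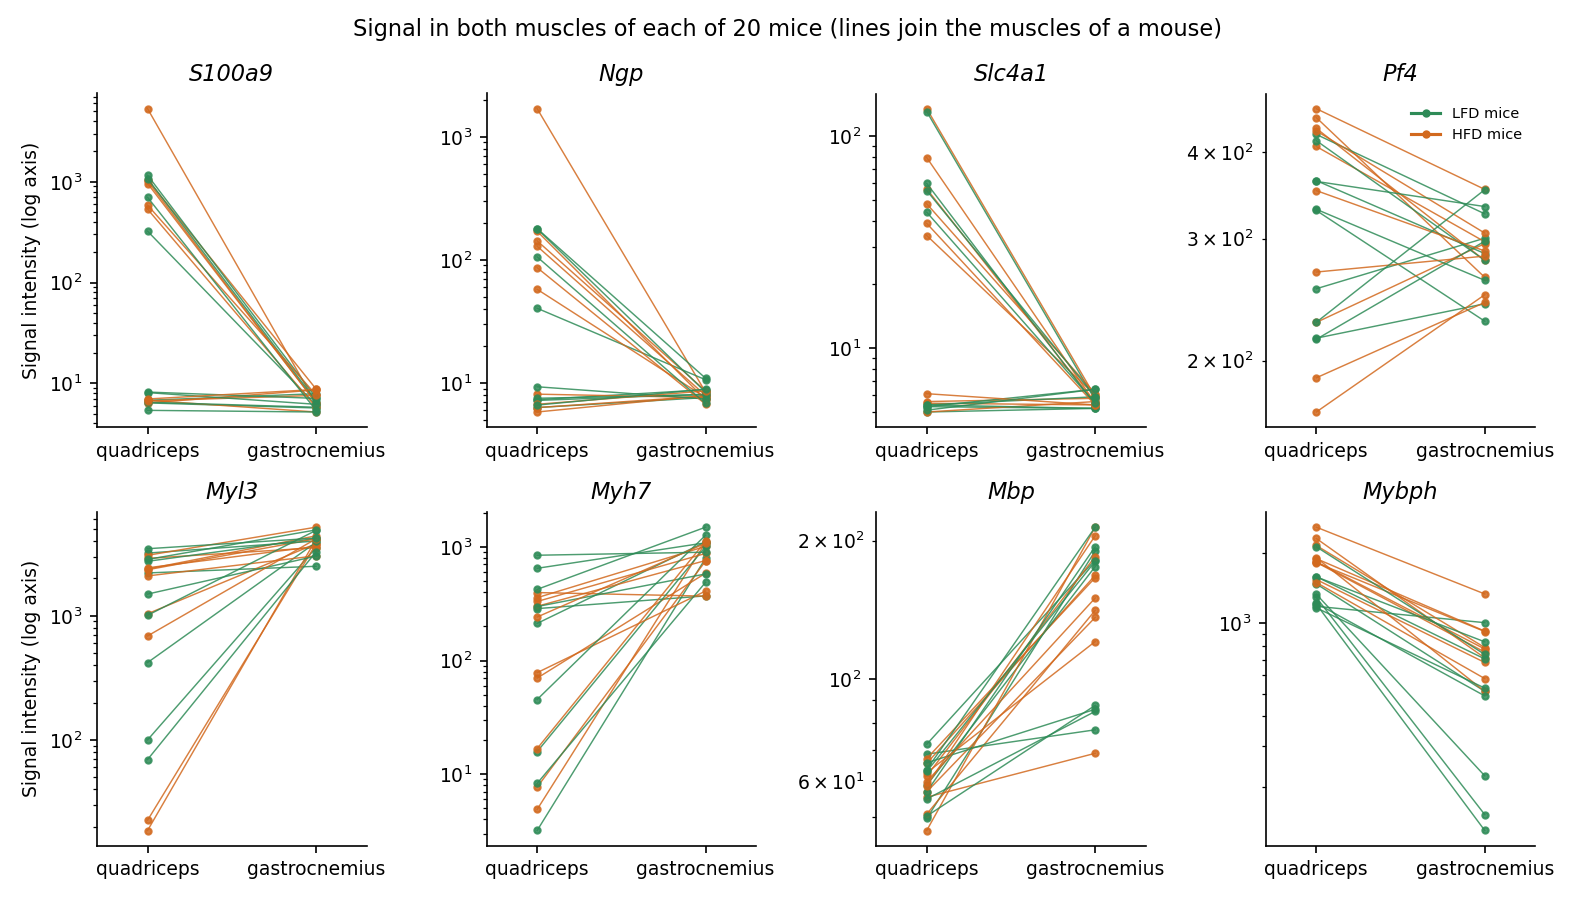
Signal intensity (y axis, log scale) in the quadriceps and the gastrocnemius of each of the 20 mice for 8 called genes, with a line for each mouse and color for its diet. *S100a9*, *Ngp* and *Slc4a1* split the quadriceps arrays into a high and a low set while the gastrocnemius stayed low, *Myl3* and *Myh7* fell away in some quadriceps arrays, and *Mbp* and *Mybph* varied more in the gastrocnemius.

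Slow fiber genes were the other large group, and their spread came from low arrays. All 11 tested members of the list had the larger SD in the quadriceps, 9 were called and the median log2 SD ratio was 1.74. Over all tested genes 51.5% had the larger SD in the quadriceps, 0.417% were called for it and the median was 0.01. *Myh7*, the slow myosin heavy chain, had signals of 3.2, 226.6 and 842.6 (lowest, median, highest) in the quadriceps and of 368.1, 885.5 and 1488 in the gastrocnemius. In the quadriceps 16 arrays were below every gastrocnemius array and 4 were within their range. Signals over 20 were seen in 14 of the quadriceps arrays, so its spread there includes signals near background. The residual SD was 2.65 against 0.614 and the log2 SD ratio 2.11 ± 0.31 (limma, adjusted p = 0.014), a call that was lost without mouse 143 or 151 (adjusted p up to 0.0702).

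The myosin light chain *Myl3* varied still more unequally. It had signals of 18.6, 2155 and 3472 in the quadriceps and of 2506, 3955 and 5180 in the gastrocnemius, with a log2 SD ratio of 3.26 ± 0.46 (limma, adjusted p = 7.27e-06). *Myl2*, the slow regulatory light chain, had 28.4 to 1408 and 1639 to 3052, so that the muscles did not overlap (2.80 ± 0.35). *Myoz2*, a calcineurin-binding protein of the Z-disc, had 84.5 to 1114 and 1412 to 2530, also without overlap (2.36 ± 0.42). These 3 genes were called without each single mouse, but all 3 calls were lost with squared deviations (limma, adjusted p = 0.568, 0.132 and 0.869), and those of *Myl3* and *Myoz2* also with the group median as centre (0.628 and 0.292).

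The slow troponins varied together with them. *Tnni1*, the inhibitory subunit, had 4.9 to 236.5 in the quadriceps and 166.1 to 603.9 in the gastrocnemius (1.74 ± 0.31; limma, adjusted p = 0.00458). *Tnnt1*, the tropomyosin-binding subunit, had 7.3 to 632.1 and 316.2 to 1415 (1.76 ± 0.30), and *Tnnc1*, the calcium-binding subunit, had 10.9 to 384.4 and 177.8 to 802 (1.57 ± 0.34). The call of *Tnnt1* was lost without any of mice 142, 143, 147, 151 and 156, with an adjusted p up to 0.0967 (limma). *Atp2a2*, the calcium pump of slow fibers and heart, had 180 to 1001 and 709.9 to 1466 (1.63 ± 0.33), and *Csrp3*, a LIM protein of the Z-disc, 83.8 to 1735 and 741.6 to 3198 (1.29 ± 0.37). *Csrp3* was named after its values were seen, and its call was lost without mouse 141, 143 or 151. Of the 20 quadriceps arrays, 14 were over 20 for *Tnni1* and 16 for *Tnnt1* and *Tnnc1*, and the rest were near background. For *Myl3* 19 were over 20, and for *Myl2*, *Myoz2*, *Atp2a2* and *Csrp3* all 20. With the group median as centre, only *Myl2* of the called slow fiber genes kept its call. With log2(signal + 50) the calls of *Myh7*, *Tnni1*, *Tnnt1*, *Tnnc1* and *Csrp3* were lost. Those of *Myh7*, *Tnnt1*, *Tnnc1* and *Csrp3* were also lost with squared deviations. Over the alternatives the adjusted p of *Myh7*, *Tnnt1* and *Tnni1* rose to 0.385, 0.413 and 0.566 (limma).

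The lowest quadriceps arrays were those of mice 142, 143, 151 and 156, in which the geometric mean of the 9 called slow fiber genes was 26.3 to 39.9. Over all quadriceps arrays it was 26.3 to 744.2 and over the gastrocnemius arrays 719.7 to 1518. None of these 4 mice was among the 10 with high neutrophil signals. The remaining quadriceps arrays filled the range up to 744.2 in mouse 160 without a gap as wide as that of the neutrophil genes. In the 10 quadriceps arrays with high neutrophil signals the slow fiber mean was 229.3 to 744.2. In the other quadriceps arrays it was 26.3 to 199.2, apart from 601.7 in mouse 141 and 419.6 in mouse 159. Since the neutrophil genes split the quadriceps arrays into separate clusters, no correlation between the groups of genes is given. Whether they vary together was not tested.

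**Figure D3:**
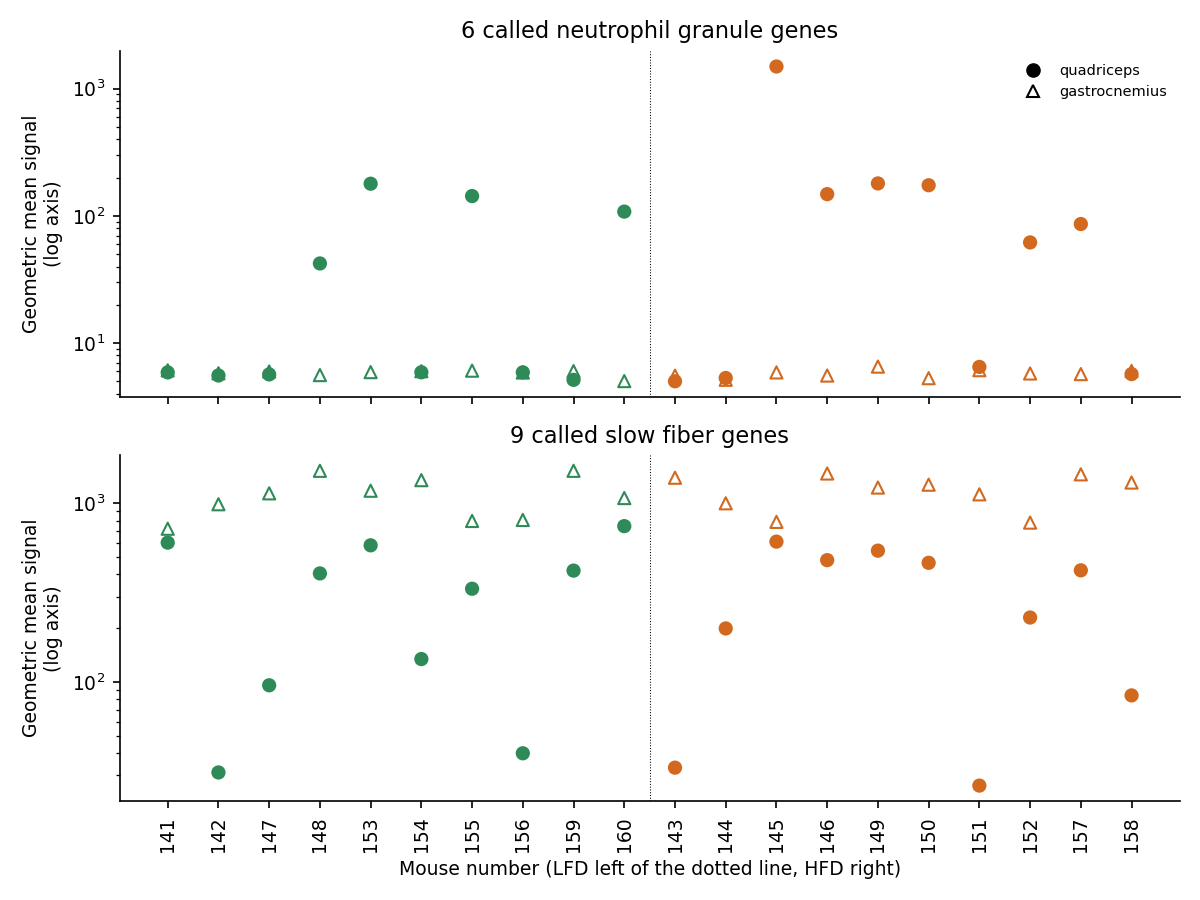
Geometric mean signal (y axis, log scale) of the 6 called neutrophil genes (top) and the 9 called slow fiber genes (bottom) for each mouse (x axis), with filled circles for the quadriceps and open triangles for the gastrocnemius. The neutrophil genes were high in 10 quadriceps arrays and at 5.0 to 6.5 in all gastrocnemius arrays, and the slow fiber genes fell to 26.3 in the quadriceps while they stayed at or above 719.7 in the gastrocnemius.

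The genes *Bdh1* and *Smtnl1* were called as well and were named after their values were seen. *Bdh1*, a mitochondrial enzyme of ketone body metabolism, had 50.2 to 584.1 in the quadriceps and 317.7 to 929 in the gastrocnemius (1.57 ± 0.37; limma, adjusted p = 0.0197). *Smtnl1*, a smoothelin-like protein of muscle, had 281.7 to 719 and 557.2 to 1154 (1.13 ± 0.64; limma, adjusted p = 0.0291). Without some single mice their adjusted p rose to 0.143 and 0.164 (limma). Both calls were also lost with the group median as centre and with squared deviations. That of *Bdh1* was lost with log2(signal + 50) and in a fit without trend and robust as well. Over the alternatives their adjusted p rose to 0.506 and 0.533 (limma). In the Pitman-Morgan test the call of *Smtnl1* was lost (adjusted p = 0.188).

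Fast fiber genes did not share the difference. Of 14 tested members, 7 had the larger SD in the quadriceps, the median log2 SD ratio was -0.03, 0 were called for the quadriceps and 1, *Mybph*, for the gastrocnemius. The fast myosin heavy chains *Myh1* and *Myh4* had log2 SD ratios of -0.21 ± 0.49 and -0.27 ± 0.39. *Myh2*, the myosin of fast oxidative fibers, had SDs of 0.347 and 0.133 (1.38 ± 0.33; limma, adjusted p = 0.124), which passed only in a test that pairs the muscles of a mouse (adjusted p = 0.0409). Median SDs in this list were 0.0482 and 0.0766.

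In the gastrocnemius *Mbp* and *Mybph* had the larger spread. *Mbp*, myelin basic protein, had signals of 68.9, 167.1 and 213.9 (lowest, median, highest) in the gastrocnemius and of 46.8, 59.3 and 72.1 in the quadriceps. Its log2 SD ratio was -1.66 ± 0.30 (limma, adjusted p = 0.00222). The call was lost with the group median as centre and with squared deviations (limma, adjusted p up to 0.385). The gastrocnemius of mice 141, 154, 155, 156 and 145 was at the low end, at 68.9 to 87.6, and the other 15 arrays were at 120.6 or above. *Pmp22*, a myelin protein also made outside nerves, had -0.84 ± 0.40 (limma, adjusted p = 0.399).

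*Mybph*, myosin-binding protein H, had 130.2, 707.5 and 1334 in the gastrocnemius and 1164, 1580 and 2573 in the quadriceps. Its log2 SD ratio was -1.62 ± 0.43 (limma, adjusted p = 0.0147). The call was lost with the group median as centre and with squared deviations. It was also lost in a fit without trend and robust (limma, adjusted p over these alternatives up to 0.536). The lowest gastrocnemius arrays were those of mice 142, 155 and 156 on the LFD, at 130.2, 152.2 and 222.9, and the call was lost without mouse 142, 155, 156 or 157 (adjusted p up to 0.409, limma).

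Lists of energy metabolism had no call. Over all tested genes 51.5% had the larger SD in the quadriceps, and 3.81% had it with an unadjusted p under 0.05. Of 19 tested fatty acid oxidation genes 15 had the larger SD in the quadriceps (median log2 SD ratio 0.35) and 5 had an unadjusted p under 0.05. The lowest p was that of *Eci1*, an enoyl-CoA isomerase, with SDs of 0.144 and 0.0682 (1.07 ± 0.37; limma, adjusted p = 0.208). Of 24 respiratory chain and ATP synthase genes 19 had the larger SD in the quadriceps (median 0.14), and of 15 citric acid cycle genes 11 (median 0.11). Glycolysis and glycogen genes had a median of -0.12 over 11 members. Of 8 fatty acid synthesis genes 5 were larger (median 0.49), with *Fasn*, fatty acid synthase, at 0.82 ± 0.75 (limma, adjusted p = 0.749).

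Among the 9 tested tendon genes, *Chad* and *Comp*, matrix proteins of cartilage and tendon, were nearest to a call. *Chad* had 34.5 to 291.1 in the quadriceps and 73.2 to 222.1 in the gastrocnemius (1.13 ± 0.28; limma, adjusted p = 0.0911), and *Comp* 28 to 154 and 32.3 to 86.9 (1.05 ± 0.30; adjusted p = 0.118). The median of the list was 0.07 and that of 12 collagen genes 0.05. Adipocyte genes varied widely in both muscles, with a median SD of 0.522 and 0.587 over 8 members, and *Cidec*, a lipid droplet protein, had 0.891 and 1.03. The heat shock genes *Hspa1a* and *Hspa1b* had 0.78 ± 0.21 and 0.73 ± 0.21 (limma, adjusted p = 0.677 and 0.789).

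The 5 genes with the widest spread in the gastrocnemius also varied widely in the quadriceps. They were chosen by their SD in the gastrocnemius, so a somewhat smaller SD in the quadriceps can follow from the choice. *Jph2*, a protein that joins the membrane systems of muscle, had SDs of 1.47 in the quadriceps and 1.51 in the gastrocnemius, and *Arrdc2* 1.40 and 1.49. *Ttll7* had 1.40 and 1.41, the stress response gene *Ddit4* 1.13 and 1.37, and *Myo18b*, an unconventional myosin of muscle, 1.07 and 1.37. None of the 5 was called. The positional factors *Hoxd8* and *Hoxd9* had SDs of 0.558 and 0.685 in the quadriceps and of 0.227 and 0.297 in the gastrocnemius (limma, adjusted p = 0.402 and 0.826), and *Tbx1* had a log2 SD ratio of -1.17 ± 0.32 (adjusted p = 0.843). In each of the 3 genes mouse 141 was the farthest array, and they passed only in the test that pairs the muscles of a mouse (Pitman-Morgan, adjusted p = 0.0409, 0.0409 and 0.044). Without mouse 141 the log2 SD ratios of *Hoxd9* and *Tbx1* were 1.15 and -0.98 (limma, adjusted p = 0.484 and 0.469), and that of *Dkk3* changed from -0.47 to 0.68 (adjusted p = 0.998 and 0.851).

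**Figure D4:**
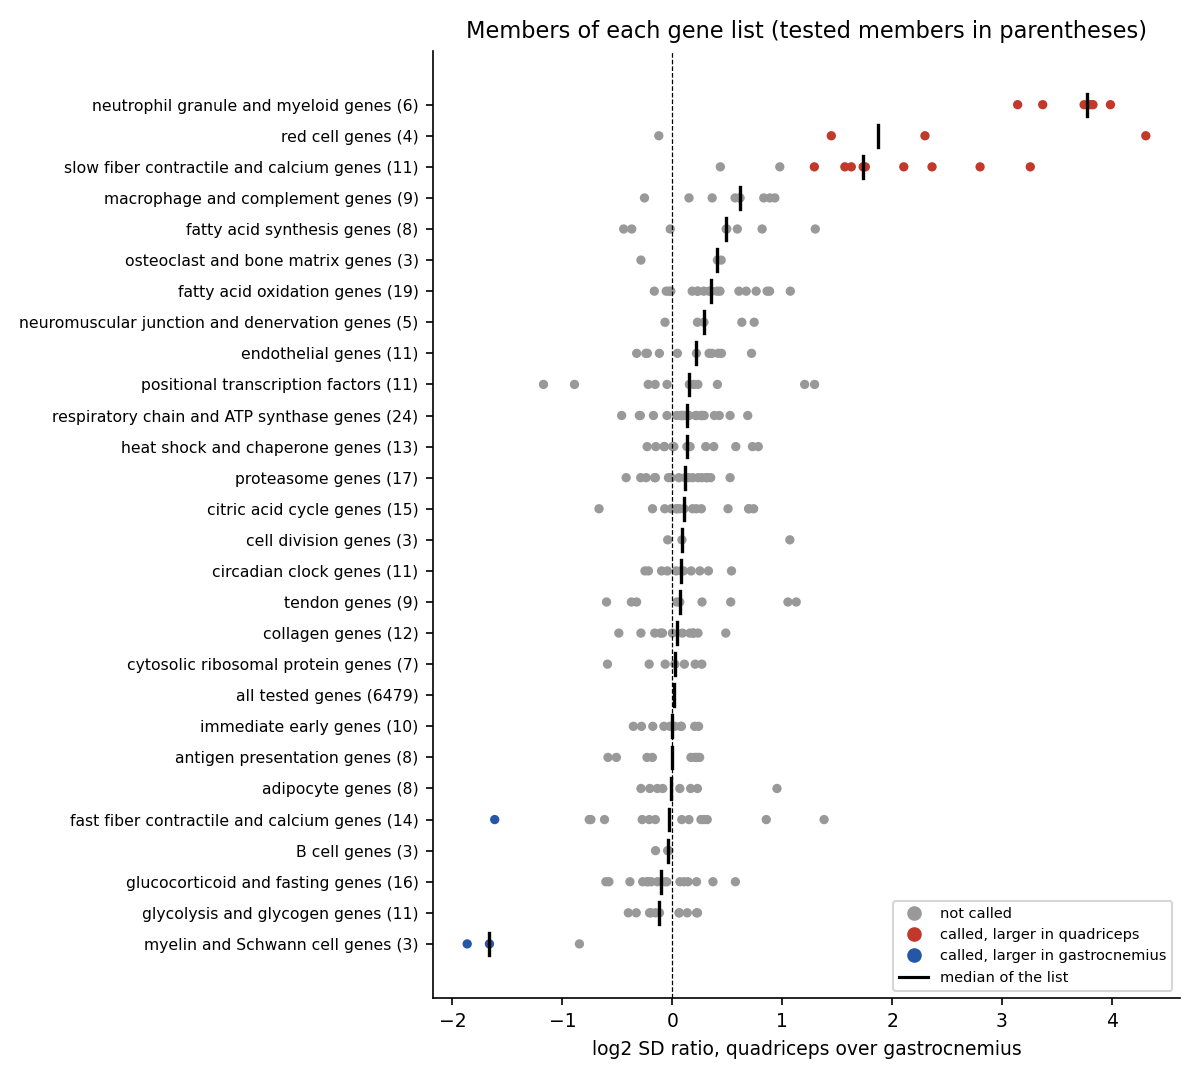
Log2 SD ratio (x axis, quadriceps over gastrocnemius) of the tested members of each gene list with at least 3 of them, with a bar at the median and, for all tested genes, the median alone. Neutrophil genes, which passed the filter through the quadriceps alone, lie at a median of 3.78, red cell and slow fiber genes at 1.87 and 1.74, myelin genes at -1.66, and the medians of the other lists lie between -0.12 and 0.61.

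The difference was also taken within each diet. The LFD and HFD mice are different animals, but the signal filter and the 30 calls used all of them. The contrasts of both diets came from a single fit of all arrays and shared its estimate of error. They are therefore not separate tests. All 30 called genes had the same direction in both diets. In the contrast of LFD mice 9 genes were called (0.139%), 6 for the quadriceps (0.0926%) and 3 for the gastrocnemius (0.0463%). All 9 had the same direction in HFD mice, 8 with an unadjusted p under 0.05 and 6 at the FDR. In the contrast of HFD mice 14 genes were called (0.216%), all for the quadriceps. All 14 had the same direction in LFD mice, 12 with an unadjusted p under 0.05 and 6 at the FDR. *Camp*, *Ctse*, *Ngp* and *Slc4a1*, called in each diet, and *Cytl1*, *Lcn2* and *Ltf*, called in HFD mice, passed the filter through the quadriceps alone. The counts that include them are therefore a description. With the mouse as a block and each diet fitted by itself, 21 and 4 genes were called in LFD mice and 11 and 0 in HFD mice.

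The 6 genes called in both diets were *Camp*, *Car2*, *Ctse*, *Myl2*, *Ngp* and *Slc4a1*. Of them only *Car2* and *Myl2* did not pass the filter through the quadriceps alone. *Slc4a1* had 4.05 in LFD and 4.76 in HFD mice, and *Myl2* 2.57 and 3.08, on the log2 SD ratio scale. *Mybph* was called in LFD mice, at -1.94, and had -0.67 in HFD mice. *Mb*, the oxygen-binding protein myoglobin, was called in HFD mice alone, at 2.01, and had 0.22 in LFD mice. It was named after its values were seen. The difference between diets was tested for every gene, and 0 of 6479 passed (0%; limma interaction, 277 genes or 4.28% at an unadjusted p under 0.05), *Mb* included (adjusted p = 0.978).

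**Figure D5:**
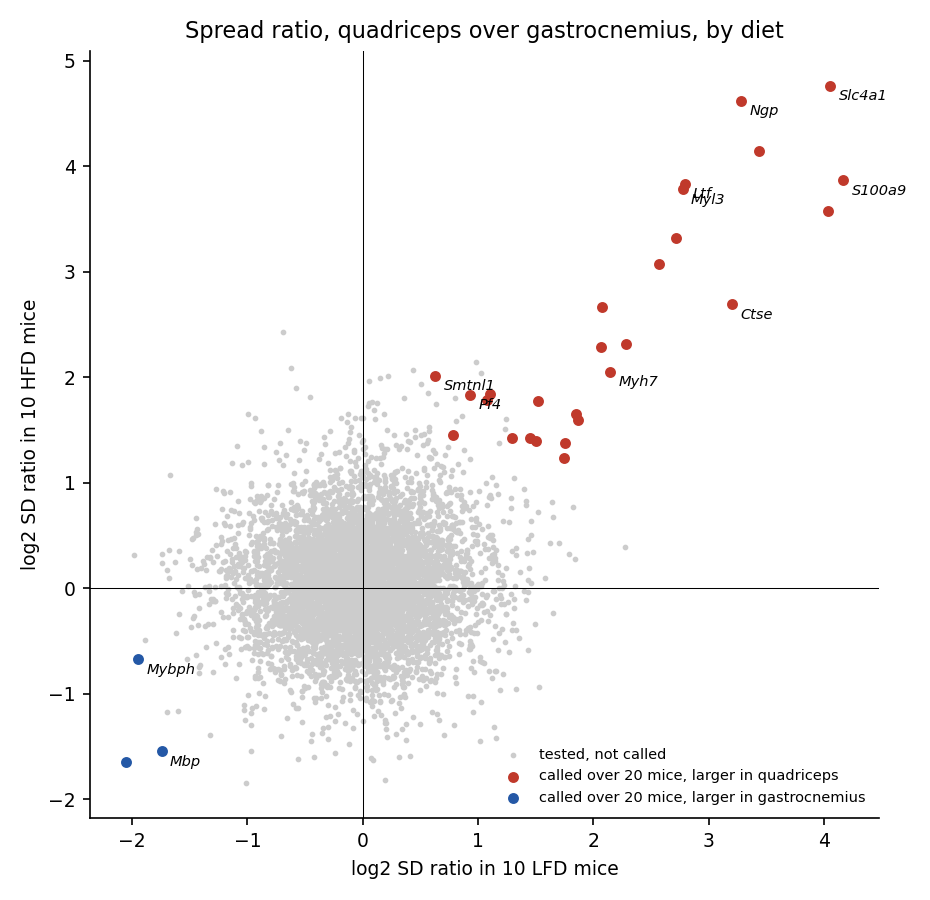
Log2 SD ratio (quadriceps over gastrocnemius) in 10 LFD mice (x axis) and 10 HFD mice (y axis) for all tested genes, with the genes called over 20 mice in color. All 27 genes called for the quadriceps are positive in both diets and the 3 called for the gastrocnemius negative in both.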

How the data were processed

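Gastrocnemius and quadriceps RNA of 20 mice was measured on 40 Affymetrix arrays. Probes had been reassigned by the authors to Entrez genes, and arrays quantile normalized and summarized by GCRMA (version not stated). Signal intensities were deposited unlogged, with 1 decimal. Of 16539 probe sets, 64 controls were left out, and 15752 of the rest carry a RefSeq symbol (GRCm38.p6), 28 a platform symbol alone and 695 none. *Ucp2* was not in the platform table and was named by the Entrez number of its probe set. 1 gene called for the gastrocnemius is counted but not reported here.

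Probe sets with a mean over 20 were transformed to log2 (no pseudocount) and centred on the mean of their muscle and diet group. Absolute residuals, scaled by the square root of n/(n-1), were fitted with limma 3.58.1 in R 4.3.3 (trend and robust), with contrasts over all mice, within each diet and for their interaction, and a Benjamini-Hochberg FDR under 0.05. The spread per array was compared with 100000 label permutations. Tables and figures were made in Python 3.11.15 (numpy 2.4.6, pandas 2.3.3, matplotlib 3.10.9).

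The same mouse number in the labels marks the same animal. Over genes, the deviations of the 2 muscles of a mouse had a median correlation of 0.25 (-0.21 to 0.63), and those of different mice -0.04. The reported fit had no mouse block, and a blocked fit was an alternative. Others were median centring, squared deviations, other filters and scales, repeated normalization and leaving out each mouse.

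The genes, the 28 gene lists and the tests were chosen with earlier results of these data known. Named genes are the 12 genes called for the quadriceps with the largest log2 SD ratio and up to 12 called for the gastrocnemius with the smallest. These had to keep their direction without each mouse. Further named genes are up to 4 members per list by adjusted p and the 5 genes with the largest SD in each muscle. The study's muscle markers and up to 5 genes with the smallest p for the interaction were added. Other called genes were named after their values were seen. The 20-week mice and the soleus were not analysed here.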

Additional observations from a re-analysis of the deposited data

Results flagged for a closer look

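Among 120 combinations of a called gene and a muscle and diet group of 10 arrays, 6 held an array that lay far from the others of its group. Chance gives about 1 in 20, which is as many. *Ltf* was 519.7 in the quadriceps of mouse 145 and 3.3 to 40.1 in the other HFD quadriceps arrays. *Mbp* was 68.9 in the gastrocnemius of the same mouse and 120.6 to 213.8 in the others of its group. *Car2* was 21.5 in the gastrocnemius of mouse 149 and 29.9 to 38.3 in the other HFD arrays. *Igkc* was 41.7 in the gastrocnemius of mouse 158 and 4.6 to 13.6 in the other HFD arrays. *Smtnl1* was 557.2 in the gastrocnemius of mouse 141 and 740 to 957.7 in the other LFD arrays. *Mybph* was 2121.8 in the quadriceps of mouse 154 and 1164 to 1582 in the other LFD arrays. No cause was tested.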

How the results depend on the processing

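The calls for a larger spread in the quadriceps (27) and in the gastrocnemius (3) depended on the measure of spread, and no called gene reversed its direction under any alternative run. Median centring left 9 and 1, squared deviations 11 and 1, a mean signal over 100 left 15 and 2 of 3892 tested, a mean over 20 in each muscle 15 and 2, and no filter gave 60 and 6 of 16475. With log2(signal + 50) the counts were 24 and 5. Among genes whose level differed by under 1.3-fold between muscles they were 0 and 0 (limma, 192 and 133 at an unadjusted p under 0.05), where only *Pf4* and *Fam117a* of the 30 called genes were tested. With the mouse as a replicate block the counts were 30 and 3, and in the Pitman-Morgan test, which pairs the muscles of a mouse, 31 and 5, with the calls of *Fam117a*, *Ucp2* and *Smtnl1* lost. Leaving out each mouse gave 20 to 31 and 2 to 5, with 5 for the gastrocnemius without mouse 159. *Slc4a1*, *Ctse*, *Car2* and *Cytl1* were called in every alternative in which they were tested. *Slc4a1*, *Ctse* and *Cytl1* passed the filter through the quadriceps alone, so their calls remain a description. They were not tested with a mean over 20 in each muscle or over 100.

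In LFD mice (6 and 3), median centring gave 0 and 0, no trend 15 and 3, a signal over 100 gave 1 and 2, log2(signal + 50) 7 and 5, the replicate block 21 and 4, and leaving out each mouse 2 to 9 and 0 to 4. The quadriceps count was 3 without mouse 141, 146, 153 or 160 and 2 without mouse 156, and the gastrocnemius count was 1 without mouse 141 or 155 and 0 without 156. In HFD mice (14 and 0), median centring gave 1 for the quadriceps, a signal over 100 gave 6, log2(signal + 50) gave 22 and the replicate block 11. Leaving out each mouse gave 7 to 20, with 7 without mouse 151. The interaction gave 0 calls under each alternative run (135 to 277 at an unadjusted p under 0.05 with all mice). The spread per array differed by 0.00155 (permutation p = 0.823) and by -0.0018 to 0.00506 without each mouse. With labels exchanged within mice as a replicate block it differed by the same value (permutation p = 0.806). As a root mean square it differed by 0.0329 (permutation p = 0.0133), which includes genes that passed the filter through a single muscle. The causes of these changes were not tested. Signals near the array median of about 9 are close to background, which limits the spread that can be seen there.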
